A study of Equus caballus with 12 samples.

Results

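Gene expression in the left ventricle of the heart was compared with that in the right lobe of the liver within each of 4 horses. These 8 libraries, 4 of heart (H) and 4 of liver (LR), were chosen by the tissue in their labels out of 12 libraries in the series. The animal number in the names of the deposited count data joined the heart and liver of 1 animal. These animals are called horses 1 to 4 here. Per the study's methods, the animals were healthy cold-blooded stallions aged 1 to 2 years, sampled at slaughter, and none of the labels gives a treatment, a mutation or an allele. Both tissues of all horses shared this origin, so the comparison speaks of whole tissue from young males only. RNA was read after selection of poly-A molecules. The values were raw read counts per Ensembl gene.

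The ventricle is built mainly of striated muscle cells that contract without rest and draw their energy from mitochondria, and much of its messenger RNA codes for contractile proteins and for enzymes of respiration. The liver parenchyma secretes most proteins of the blood plasma and carries out intermediary metabolism, and its RNA is rich in messages of secreted proteins. Each horse gave 1 library of each tissue, so a heart-to-liver ratio could be taken within each animal. The files pair no gene symbol with the identifiers, and the reference table used here matched 0 of them. The labelled tissues were therefore not checked against marker genes, functions are not given for single genes, and at most 2 identifiers are named for genes called in each direction.

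Reads counted in genes ranged from 6146728 to 23474239 in heart and from 4345694 to 18142916 in liver. The shallowest libraries were the heart of horse 3 and the liver of horse 4. The heart library of horse 2 stood apart, since it held transcripts of liver genes at a level well above that in the other heart libraries. The main results that rest on it are given with and without it.

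Of 15436 genes tested across the series, 7470 were differentially expressed genes (DEGs) between heart and liver, which is 48.4% of all. To be counted as a DEG a gene had to differ by 1 log2 unit or more. Its p also had to be below 0.05 after Benjamini-Hochberg adjustment over all tested genes (edgeR, quasi-likelihood F-test). The fit took tissue alone over the 12 libraries, so these calls are not paired by horse. Genes higher in heart made up 26.4% of the tested genes and genes higher in liver 22.0%. Every heart library lay above every liver library for 3603 of the former, and the reverse held for 3088 of the latter. Scaling set this balance in part, since 54.5% of the DEGs were higher in heart with TMM and 45.6% with library totals. In these bulk samples, fewer cells of a type and less RNA per cell cannot be told apart. Within single horses, a TMM-scaled heart-to-liver ratio of 2-fold or more was found for 4353 to 4753 genes and a liver-to-heart ratio of that size for 3450 to 4428 genes. The ratio kept above 2-fold in all 4 horses for 2649 genes higher in heart (17.2% of tested genes) and 2282 genes higher in liver (14.8%). Of these genes, 2628 and 2281 were also DEGs. In horses 1, 3 and 4 alone, 3035 and 2702 genes met this limit in each horse, with 1 horse fewer to pass it. The other DEGs had at least 1 horse below 2-fold. In 3710 genes (24.0% of those tested) no horse went beyond 2-fold either way. The filter also used the lung libraries, and with heart and liver libraries alone 13312 genes were tested. Some of the 3710 genes thus had no count in heart or liver, and their ratio of 0 comes from the prior count. The 3710 are therefore not all shown to be alike in the tissues.

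The genes with a 2-fold ratio in each horse were chosen by these libraries, so that the direction of their shares is given by the choice and only the size is described. Those higher in heart took between 75.5% and 80.3% of the gene counts of the heart libraries, against 5.99% to 8.32% in liver. Those higher in liver took 68.2% to 73.8% of liver counts and 1.71%, 3.59%, 1.80% and 1.61% of heart counts in horses 1 to 4, with horse 2 the highest. A few genes carried much of these shares, since 10 of the heart genes held 52.0% to 53.2% of heart counts and 9 of the liver genes 23.9% to 29.7% of liver counts. At the other end, 3429 genes (22.2% of those tested) had a 95% interval of the fold change that stayed within 1 log2 unit on either side of 0, and 2915 genes did without horse 2. These 3429 alike genes took 8.71% ± 0.451 of the counts in heart and 10.3% ± 0.812 in liver (SD, n = 4 each). A further 4537 genes were neither called nor held within that interval. Of these, 1559 had an edgeR adjusted p below 0.05 with a difference of less than 1 log2 unit, and 2978 did not pass that p. The 2978 take in genes with no count in heart or liver, for which no fold change can be read.

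Large differences in ratio between genes recurred across horses. Across the 15436 genes the log2 ratios of 2 horses correlated with an r between 0.864 and 0.912, and the lowest values were those with horse 2. These correlations are across genes, which are not independent replicates, and the points of 1 horse share its libraries and their depth. Of the 4074 DEGs higher in heart, 94.6% had the same sign of the ratio in all 4 horses, and of the 3396 higher in liver 96.0%, against 66.3% of all tested genes. The calls rest on the same libraries, so these shares are descriptions. The 4 ratios of a DEG spanned a median of 1.5 log2 units for heart and 1.61 for liver, or 1.18 and 1.07 without horse 2.

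To show the genes that carry the comparison, the most abundant DEGs of each tissue were followed in every library, as CPM (counts scaled to the TMM-adjusted size of the library). ENSECAG00000027689 was the most abundant gene of the heart. It stood at 372493, 465477, 359299 and 387681 CPM in the hearts of horses 1 to 4. In the livers of the same horses it stood at 31393, 37176, 24428 and 30994 CPM. The heart was higher in each horse, with no overlap between the tissues. The within-horse ratio was nearly constant, at 11.9, 12.5, 14.7 and 12.5, and the log2 fold change was 3.68 ± 0.40 (SE, edgeR adjusted p = 3.4e-06). This gene was also the sixth in the order of abundance in the liver.

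The gene second in the heart, ENSECAG00000027671, varied more between horses but in both tissues together. Its level was 131742, 65717, 158197 and 75035 CPM in heart and 10844, 7301, 11412 and 6532 CPM in liver. Horses 1 and 3 were the higher animals in either tissue, and the ratio stayed between 9.0 and 13.9. The log2 fold change was 3.58 ± 0.44 (SE, edgeR adjusted p = 1.05e-05). These ranks order genes by reads, which are not corrected for gene length.

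In the opposite direction, ENSECAG00000010305 was the most abundant gene of the liver, at 132990.1 CPM in horse 1, 78501 in horse 2, 89147 in horse 3 and 77012 in horse 4. In heart it stood at 48.5, 2556, 163 and 86.2 CPM, in the same order. The liver libraries lay within a narrow band, whereas the heart of horse 2 was more than 10-fold above each other heart. The liver exceeded the heart by 2734-fold in horse 1, by 547-fold in horse 3 and by 892-fold in horse 4, but by 30.7-fold in horse 2. With all libraries the log2 fold change of heart over liver was -7.05 ± 1.27 (SE, edgeR adjusted p = 0.000324). Without heart replicate 2 it was -9.90 ± 0.72 (SE, edgeR adjusted p = 1.18e-07), and without horse 1 in both tissues it was -6.45.

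ENSECAG00000021580, second in the liver, had 57403, 57455, 112033 and 47643 CPM in liver and 27.7, 1839, 209 and 66.6 CPM in heart. Its order among the hearts was the same as for the gene before it. The liver-to-heart ratio was 2063 in horse 1, 31.2 in horse 2, 536 in horse 3 and 715 in horse 4. The log2 fold change was -7.00 ± 1.29 with all libraries (SE, edgeR adjusted p = 0.000407) and -9.42 ± 0.98 without heart replicate 2 (SE, edgeR adjusted p = 3.01e-06). Without horse 3 in both tissues it was -6.39. With horse as a block the log2 fold changes of these liver genes were -8.52 and -8.55.

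**Figure D1:**
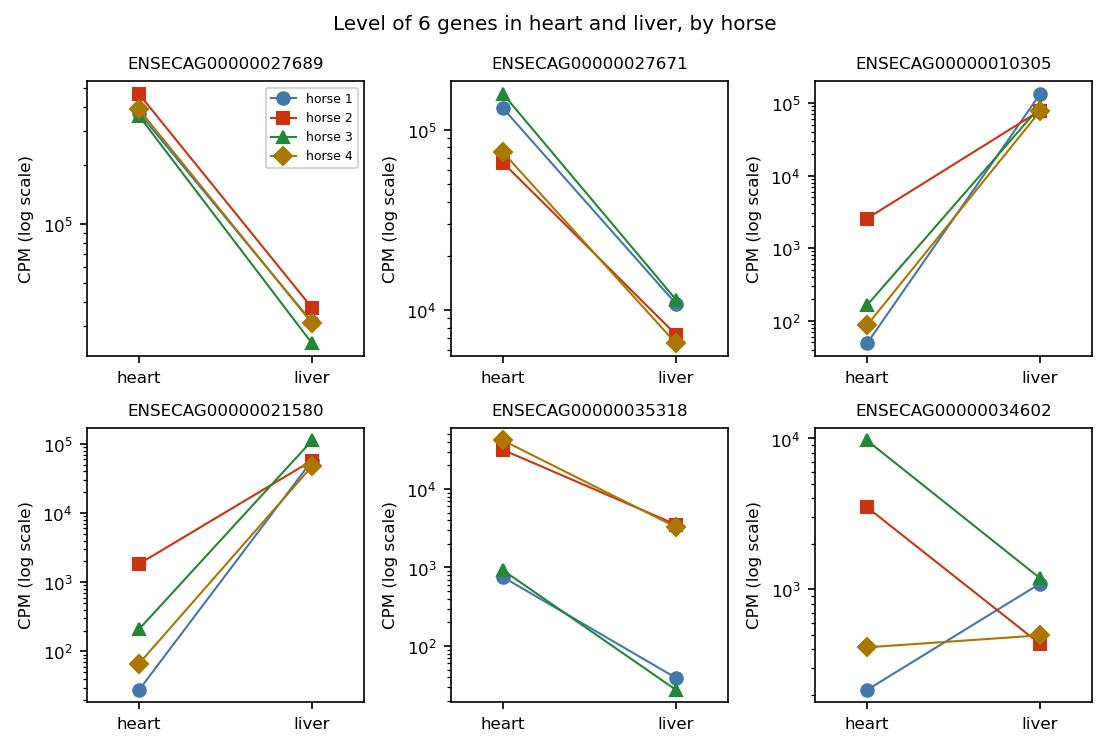
Level of 6 genes in heart and liver, in CPM on a log scale that differs between panels, with 1 line per horse. In the panels of ENSECAG00000010305 and ENSECAG00000021580 the heart of horse 2 lies at 2556 and 1839 CPM, far above the other hearts, while the line of ENSECAG00000034602 falls in horses 2 and 3 and rises in horse 1.

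The remaining abundant genes repeated these patterns. Among the 10 most abundant genes of the heart, 9 were DEGs higher in heart. The first 8 had heart-to-liver ratios of similar size, with log2 means of 3.56, 3.77, 4.13 and 3.86 in horses 1 to 4. The lowest of the 8 was 2.57 in horse 1. The ninth gene differed by far more, with log2 ratios from 11.38 to 12.52, and was the one gene of the 9 outside this range. Horse 2 did not stand apart from the other animals at these genes.

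Among the 10 most abundant genes of the liver, 9 were DEGs higher in liver. Of the first 9, the 8 genes higher in liver shared almost the same liver-to-heart ratio within a horse, but a different one in each horse. Their log2 ratios lay between 11.01 and 11.53 in horse 1, between 4.77 and 5.44 in horse 2, between 8.60 and 9.14 in horse 3 and between 9.43 and 10.08 in horse 4. Expressed as a level in heart, the mean of the 8 genes corresponded to 0.0382% of the liver level in horse 1, 3.02% in horse 2, 0.209% in horse 3 and 0.117% in horse 4. The spread between genes within a horse was an SD of 0.18 to 0.24, small beside the distance between horses. The tenth gene differed, with log2 ratios of 6.27, 4.36, 4.87 and 4.90. These 8 genes were set together after their values were seen, and no test was made on them. A part of liver RNA in the heart libraries of horses 1, 3 and 4 was not tested.

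**Figure D2:**
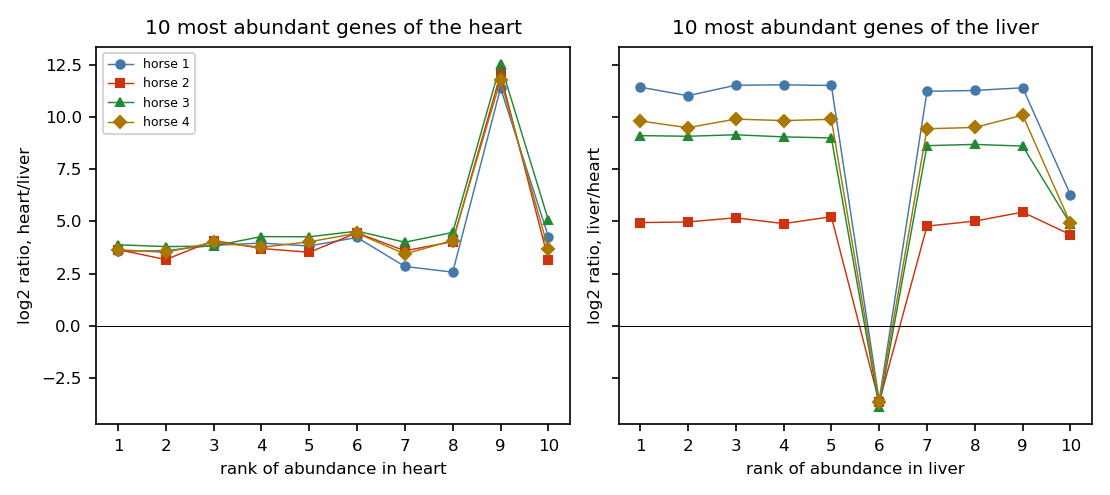
Log2 ratio within each horse for the 10 most abundant genes of the heart (left, heart over liver) and of the liver (right, liver over heart), by rank of CPM, with 1 symbol per horse. On the right the symbols of a horse form level rows, near 11.4 in horse 1 and 5.05 in horse 2, broken at rank 6 by the gene that is also the first of the heart and at rank 10, where the ratios are 6.27, 4.36, 4.87 and 4.90.

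The heart of horse 2 was set against the other horses over all genes. Genes were binned by the mean log2 ratio of 3 horses, and the ratio of the fourth was read in each bin. Where horses 1, 3 and 4 had a log2 ratio below -8 (261 genes, median -9.33), the median in horse 2 was -4.95 with quartiles of -5.20 and -4.74. The heart level of these genes was thus 3.24% of the liver level in horse 2, compared with 0.155% in the other horses, and 100% of the genes lay closer to equality in horse 2. Between -8 and -6 the median in horse 2 was -4.55 (205 genes). The ratio of horse 2 hence levelled off near -5, and genes that differed by 100-fold or more in favour of the liver numbered 3 in horse 2, compared with 401, 394 and 413 in horses 1, 3 and 4.

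The difference of horse 2 was not limited to these genes. Where the other 3 horses lay between -4 and -2, with a median of -2.65, horse 2 had a median of -2.05. Genes higher in heart were closer to equality as well. Horse 2 had a median of 4.22 where the others had 4.70 (549 genes) and of 8.97 where the others had 9.42 (118 genes), and 70.7% and 74.6% of the genes of these bins were closer to 0 in horse 2. In horses 1, 3 and 4, described with bins from each other alone, the lowest bin had medians of -10.20, -8.41 and -9.34. These bins, chosen after the data were examined, leave out horse 2, whose ratios pull the mean of 3 horses towards 0. No levelling near -5 was seen in these horses. The smaller shifts were in part shared. In such bins from 4 to 6, horses 1, 3 and 4 had medians of 4.47, 4.60 and 4.50 where the others had 4.69, 4.68 and 4.73. From -4 to -2, horses 1 and 4 had -2.39 and -2.28 where the others had -2.70 and -2.67. Horse 3 went the other way there, with -2.80 against -2.64. Above 8 the median difference per gene was -0.35, 0.14 and -0.18, and in horse 2, with its own bins, -0.65.

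**Figure D3:**
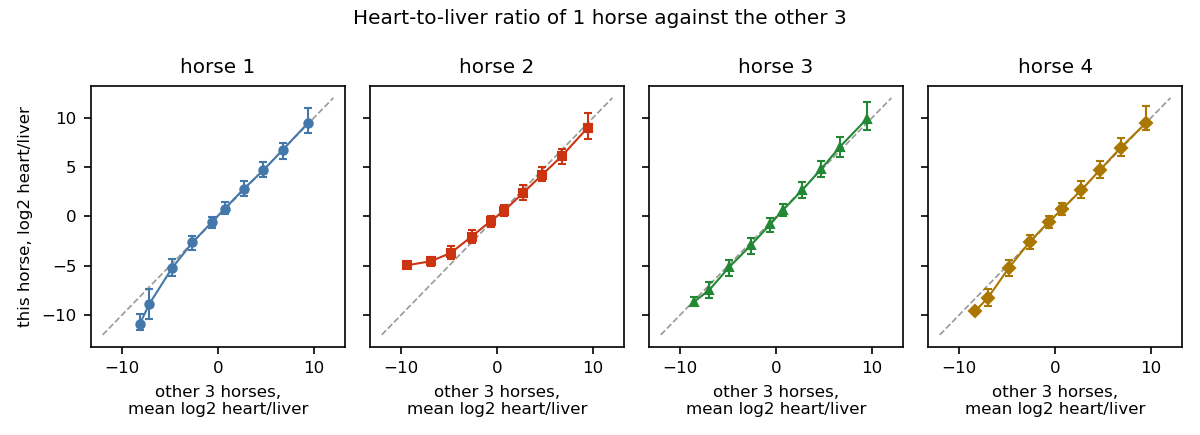
Log2 heart-to-liver ratio of each horse, as median and quartiles over genes, against the mean log2 ratio of the other 3 horses in 10 bins, with the line of equality dashed. In horse 2 the points leave the line on the left and level off at -4.95, whereas horses 1, 3 and 4 reach -10.95, -8.63 and -9.59.

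Leaving out heart replicate 2 changed the size of differences more than their number. Genes higher in heart made up 26.0% of the 15906 genes then tested and genes higher in liver 22.2%. Of the DEGs with all libraries, 3881 higher in heart and 3275 higher in liver were called again, 193 and 121 were lost, 254 and 264 were gained, and none changed direction. DEGs at least 10-fold higher in liver rose from 1195 to 1317 and those at least 100-fold higher from 311 to 585. A fitted difference of at least 1000-fold in favour of the liver was found for 8 genes with all libraries, 7 of them with no count in any heart. Without heart replicate 2 there were 141 such genes, 55 of them with no heart count. In favour of the heart the numbers were 112 and 116, and 46 and 48 of these had no liver count. Fitted values of genes with no count depend on the fit and are no bounds. Leaving out any other single library gave between 8 and 11 genes for the liver at 1000-fold, and leaving out horse 1 in both tissues gave 190 genes at 100-fold.

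The liver transcripts in the heart of horse 2 were then compared with each liver. A set of 222 genes at least 6 log2 units higher in liver than in heart and lung, averaging 100 CPM or more in liver, was taken from horses 1, 3 and 4 only. The libraries of horse 2 had no part in this choice. In the heart of horse 2 their median count was 174.5 and none was at 0, whereas the medians were 8, 8 and 13.5 in the hearts of horses 1, 3 and 4. Horses differed in how much of each gene the liver held, and the deviations of the heart of horse 2 from the mean liver level followed those of the liver of the same horse, with r = 0.831 across genes, in centred log2 values. With the livers of horses 1, 3 and 4 the r was -0.500, 0.184 and -0.349. The mean was taken over all 4 livers and subtracted on both sides. The 4 liver deviations of a gene therefore sum to 0, and a high r with 1 liver lowers the r with others. For the heart of horse 2 the SD of the log2 ratio across genes was 0.336 against its own liver and 0.743 to 1.206 against the others. These are descriptions over genes that share libraries. In the hearts of horses 1, 3 and 4 the r with their own liver was 0.014, 0.311 and 0.021. The heart of horse 3 had -0.356, 0.250 and -0.048 with the livers of horses 1, 2 and 4. Its SD was 1.213 against its own liver and 1.236 to 1.709 against the others. The heart of horse 4 had its highest r, 0.159, with the liver of horse 3, and the heart of horse 1 had none above 0.014. Counts in these hearts were low, and no order among these values was tested.

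**Figure D4:**
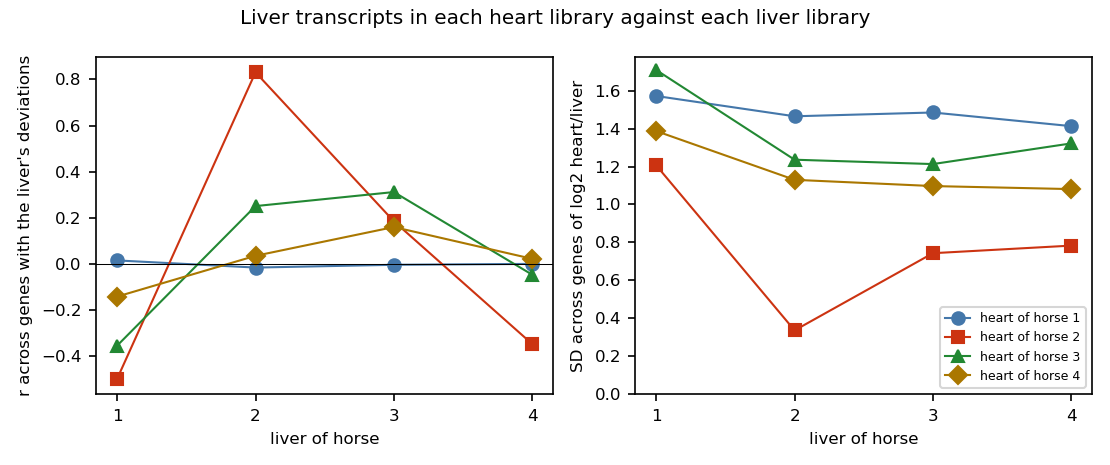
Likeness of each heart library to each liver library over 222 genes of the liver, as r of the deviations from the mean liver level (left) and as SD of the log2 ratio across genes (right), with 1 symbol per heart. For the heart of horse 2 the liver of the same horse has the highest r, 0.831, and the lowest SD, 0.336.

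Differences between the tissues depended on how abundant a gene was. Genes were classed by their mean CPM over the 8 libraries. DEGs made up 38.2% of the 2056 genes below 1 CPM, 53.2% of the 5119 genes from 1 to 10 CPM, 44.5% of the 6947 from 10 to 100 CPM, 63.3% of the 1184 from 100 to 1000 CPM and 90.8% of the 130 genes of 1000 CPM and more. The class below 1 CPM holds genes that passed the filter through lung, some with no count in heart or liver. Those without a count could not be called, so its 38.2% is in part given by the filter. The same holds for its median ratios and its spread, given below. The class of 1000 CPM and more, by its construction, takes in genes that are very abundant in 1 tissue alone. In this class 77 genes were higher in liver and 41 in heart. From 1 to 10 CPM the order was the opposite with TMM, with 1619 genes higher in heart and 1104 in liver. Counts by direction were not made per class with other scalings. Over all classes, library totals gave 3400 DEGs higher in heart and 4056 higher in liver.

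The per-horse medians followed the same course. Below 100 CPM they lay between 0 and 0.34 in all horses, and from 100 to 1000 CPM between -0.31 and -0.06. At 1000 CPM and more the median log2 ratio was -5.85, -4.01, -5.02 and -5.70 in horses 1 to 4, with horse 2 the closest to 0. The class medians below 1000 CPM are small. Averaged over horses, those from 1 to 1000 CPM changed sign under at least 1 other scaling, and that below 1 CPM stayed between 0.03 and 0.19. With library totals in place of TMM the median over all tested genes shifted from a log2 fold change of 0.12 to -0.13.

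The spread of the ratio between horses also changed with abundance. Its median SD over the 4 horses was 1.07 log2 units below 1 CPM, where counting error alone would give 1.33 by an estimate that adds 1 count to each value. With a prior count of 0.5 in place of 2 the SD was 1.69, so that no order between it and counting error can be read in this class. It was 0.73 from 1 to 10 CPM and 0.42 from 10 to 100 CPM, where counting error would give 0.49 and 0.17. At 1000 CPM and more the SD rose to 1.03 although counting error there was 0.08. Without horse 2 it was 0.59 in that class. The genes read most deeply were thus not those with the most alike ratios.

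**Figure D5:**
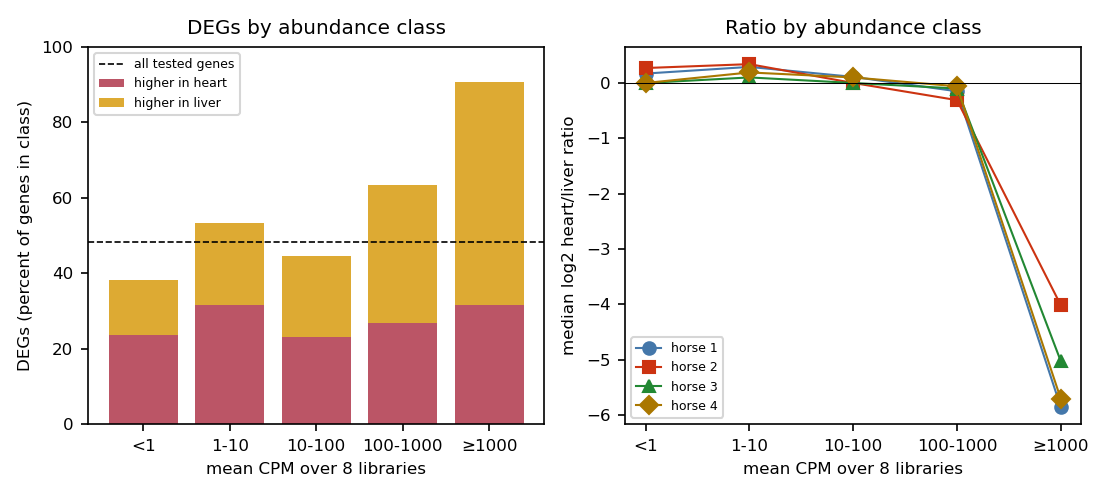
DEGs as a percent of the genes of each abundance class (left, stacked by the tissue with the higher level, dashed line for all tested genes at 48.4%) and median log2 heart-to-liver ratio in each horse (right). The class of 1000 CPM and more has 90.8% DEGs and medians between -5.85 and -4.01.

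When genes were classed by their level in lung, which is not in the contrast, the picture was different at the top. The 24 genes of 1000 CPM and more in lung had 13 DEGs, 9 of them higher in heart. The highest share of DEGs, 70.4%, was then found in the 1738 genes below 1 CPM in lung. Genes of 10 to 100 CPM in lung had the lowest share, 42.4%. Genes passed the filter by their counts in enough libraries of any tissue, so those below 1 CPM in lung could enter through heart or liver alone. The 70.4% is therefore given in part by the filter.

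As libraries, heart and liver divided their reads differently between the classes. Genes of 1000 CPM and more held 68.4% ± 1.09 of the counts in heart, and 56.1% ± 2.79 in liver (SD, n = 4 each). The classes were set from these same libraries, and their shares are parts of 1 total, so they are not separate results. Genes of 100 to 1000 CPM took 15.8% ± 0.387 and 24.9% ± 1.49, and genes of 10 to 100 CPM took 14.2% ± 0.706 and 17.3% ± 1.43. Genes at 1 CPM or more numbered 12714.8 ± 332 in heart and 12305.2 ± 96.8 in liver, where the heart of horse 2 had the most, 13199. No other scaling was tried for this number. For each of the 4 measures the tissues did not overlap and the 4 horses had the same direction (exact permutation test of unpaired libraries, two-sided p = 0.0286, adjusted p = 0.0286 over 4 measures). No smaller p is possible with 4 libraries a tissue, and a sign flip over 4 horses can give no p below 0.125.

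Pairing by horse mattered for a few genes. With horse as a block, 48.8% of the tested genes were DEGs. A total of 193 genes were gained, 136 of which had differed by 1 log2 unit or more without it, and 137 genes were lost. The gene with the tenth rank in heart, ENSECAG00000035318, changed its call with the block and was chosen after its values were seen. It stood at 754, 31587, 919.9 and 41589 CPM in heart and at 39.1, 3524, 27.5 and 3270.2 CPM in liver. Horses 2 and 4 were higher than horses 1 and 3 in both tissues, and the tissues overlapped. Within horses the heart was higher by 19.2, 8.96, 33.3 and 12.7 times. The log2 fold change was 3.45 ± 1.92 (SE, edgeR adjusted p = 0.139) without the block and 4.02 ± 0.36 (SE, edgeR adjusted p = 2.41e-06) with it.

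A small number of genes went in opposite directions in different horses. Of 8261 genes with a mean of at least 10 CPM, 65 (0.787%) were at least 2-fold higher in heart in 1 horse and at least 2-fold higher in liver in another, and 4 of these were DEGs. At 4-fold there were 8 genes, of which 1 was a DEG. The most abundant of the 8 was ENSECAG00000034602, which was named after its values were seen. Its level in heart was 215, 3499, 9701 and 412 CPM, and in liver 1090.4, 434, 1183 and 495 CPM. The hearts of horses 2 and 3 were high and those of horses 1 and 4 low, with the livers in between. The heart-to-liver ratio was 8.06 and 8.20 in horses 2 and 3, while in horses 1 and 4 the liver was higher by 5.07 and 1.20 times. The log2 fold change was 2.11 ± 1.08 (SE, edgeR adjusted p = 0.109), and without heart replicate 1 it was 2.50 (edgeR adjusted p = 0.0391). Without heart replicate 3 it was 0.78 (edgeR adjusted p = 0.514).

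The second of these genes, ENSECAG00000029964, had almost the same profile. It had 154, 2862, 7677 and 349 CPM in heart and 1215, 344, 1485 and 464 CPM in liver. The hearts of horses 2 and 3 again exceeded all livers. Its log2 CPM over the 8 libraries correlated with that of ENSECAG00000034602 with r = 0.989, and 3 other genes of the 8 reached 0.952 to 0.999. In these 5 genes the mean of the hearts of horses 2 and 3 was between 21.0 and 31.6 times that of horses 1 and 4. The genes were picked for opposite ratios in these libraries, so the correlations are a description. In the genes described above as abundant in liver the heart of horse 2 was the highest, whereas in ENSECAG00000034602 and ENSECAG00000029964 the heart of horse 3 was higher still.

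Depth set how firmly absence from a tissue could be read within a horse. In the counts as deposited, 314, 172, 594 and 207 genes had at least 10 counts in the liver and none in the heart of horses 1 to 4. The reverse held for 649, 339, 281 and 916 genes. The high values went with shallow libraries, the heart of horse 3 and the liver of horse 4. With every library thinned to 4345694 counts, the numbers were 414, 125, 376 and 449 for genes without a heart count and 402, 344, 392 and 322 for genes without a liver count. The heart of horse 2 then stood out from the other hearts, while the livers were alike.

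Exceptions in single horses were few. Of the DEGs higher in heart, 137 had a ratio of opposite sign in horse 3, compared with 10, 28 and 42 in horses 1, 2 and 4. In 78 of the 137 the heart of horse 3 had no count, and 8 had a mean of at least 10 CPM. Of the DEGs higher in liver, horse 2 had 34 exceptions and horse 4 had 33, 15 of the latter without a count in the liver. In horse 2 none of the 34 lacked a liver count.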

How the data were processed

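RNA-seq of heart, liver and lung was deposited as 1 table of raw read counts per library, with 31217 genes each. Per the submitters' processing notes and the study's methods, the authors used FastQC for read quality, TopHat2 for alignment to EquCab3.0, HTSeq for counting over Ensembl genes and DESeq2 for comparing tissues. The library kit does not mark strand, and no source used here gives the strand setting of the counting. Overlapping or antisense genes may therefore share reads, and genes with near-identical copies are uncertain. Summary rows of HTSeq were kept out.

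Here the counts of the 12 libraries entered 1 edgeR 4.0.16 quasi-likelihood model by tissue (R 4.3.3, filterByExpr, TMM, robust). This left 15436 genes; 8133 had no count and 7648 fell below the filter. The SE is the log2 fold change over the square root of F. Per-horse ratios are differences of log2 CPM with a prior count of 2, which understates the ratio of low genes. Alternatives included DESeq2 1.42.0, other scalings, no filter, horse as a block and leaving out libraries. Symbols that the study gives for some identifiers were not used here, so the gene lists fixed by symbol were not run.

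Horse numbers pair the libraries because 1 number is 1 animal. Deviations from tissue means correlated between heart and liver of a horse with r = 0.125, 0.093, 0.140 and 0.092 across genes. The highest r with another horse's liver was 0.067, -0.018, 0.099 and 0.104, which in horse 4 exceeded that with its own. Named genes were the 2 most abundant DEGs of each tissue whose libraries did not overlap with the other. The members, classes and rules were chosen with earlier results of these data known. Counting error was estimated from reads without molecular identifiers and covers counting only. Without the block, the edgeR p-values measure the spread between libraries of 4 animals within tissues, pooled over tissues. They do not measure the spread of the within-horse differences. The fit was tested on simulated data with independent libraries and no effect of horse. There it called 72 and 90 of 100 genes changed by 1.5 and 2 log2 units, which does not test it on the real libraries.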

Additional observations from a re-analysis of the deposited data

Results flagged for a closer look

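Among 48 sets of 4 values, 2 had a horse farther from the others than Dixon's 95% limit allows, and about 1 set in 20 is expected to pass it by chance. Both were horse 2. Where the other 3 horses had a mean log2 heart-to-liver ratio between -6 and -4, its median was -3.72. In their own bins of that range, horses 1, 3 and 4 had -5.26, -5.16 and -5.19. Those bins hold other genes and were set by means that include horse 2. With bins that leave horse 2 out, horses 1, 3 and 4 had -4.63, -4.81 and -4.67. Where the others lay between 4 and 6, its median was 4.22, against 4.68, 4.75 and 4.73 in bins of the same kind. Bins without horse 2 gave 4.47, 4.60 and 4.50 in horses 1, 3 and 4. The flags thus rest in part on how the bins were set. Dixon's limit was not applied to the bins without horse 2. In the lowest bin, the gap of horse 2 was larger but the other horses also differed among themselves.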

How the results depend on the processing

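The number of DEGs ranged from 5586, with a test against a log2 change of 1, to 8313, with no filter on low counts. It lay between 7043 and 7674 when libraries or horses were left out, and no DEG changed direction in any of them. With horse as a replicate block it was 7526 with 12 libraries and 6521 with heart and liver alone, and among the named genes the block changed the call of ENSECAG00000035318 only. The share of DEGs higher in heart was 54.2% without horse 2 and 63.4% when the totals left out the 10 genes of highest level in each tissue. DESeq2 gave 8209 DEGs, but set aside 48 DEGs higher in liver and 3 higher in heart by Cook's distance, among them ENSECAG00000010305.

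Genes of at least 4-fold in each horse numbered 1421 for heart and 1295 for liver. Classing by lung level gave 1223, 330 and 13 DEGs in the classes below 1, of 100 to 1000 and of 1000 CPM and more. The medians of the log2 ratio, averaged over horses, there were 0.35, 0.32 and 0.77, with 0.12 from 1 to 10 CPM, and its SD at 1000 CPM was 0.59. With library totals these averaged medians in the classes from 1 to 10, 10 to 100 and 100 to 1000 CPM were -0.04, -0.23 and -0.43, and when the totals left out those top genes 0.48, 0.31 and 0.11. A prior count of 0.5 raised the SD below 1 CPM to 1.69, and without horse 2 the SD at 1000 CPM fell to 0.59. The cause was not tested.

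The sign flip over 4 horses left the differences of heart minus liver at 12.3, -9.11 and -3.05 percentage points and 409.5 genes, with p = 0.125, the smallest exact value possible. Without horse 2 they were 11.8, -8.60 and -2.98 points and 263 genes (exact permutation test, p = 0.100, again the smallest). The likeness of the heart of horse 2 to its own liver was 0.647 over 315 genes at 4 log2 units, a setting added once the data had been seen. Depth of 4345694 and 6146728 counts in the shallowest liver and heart limits ratios of genes below 1 CPM.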

Other observations

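The genes with opposite ratios between horses also varied in lung, which was not part of the comparison. ENSECAG00000034602 stood at 587, 539, 71.5 and 110.4 CPM in the lungs of horses 1 to 4, and ENSECAG00000029964 at 621, 665, 63.8 and 104 CPM. In both, the lungs of horses 1 and 2 were the higher ones, while the hearts of horses 2 and 3 were. No test was made on these genes, which were chosen after their values were seen.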
